A study of Homo sapiens with 42 samples.

Results

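The subject is poly(A) RNA of K562 cells in which the adenosine deaminase TadA-8e was directed to the cytoplasm or to the nucleus. Every site listed for the 2 constructs was taken, and sites at the same chromosome, position and strand in both tables were compared. With the cytoplasmic construct 945447 sites were listed and with the nuclear construct 560441, and 423471 of them were in both. Of 8102 gene names with a shared site, 6523 had at least 5 and were tested, and they held 420068 shared sites. K562 is a human erythroleukaemia line of wild-type genotype. The NES libraries came from cells electroporated with a plasmid for TadA-8e carrying a nuclear export signal (NES, 2 libraries), and they were set against libraries from cells given TadA-8e with a nuclear localisation signal (NLS, 2 libraries). Both plasmids also expressed GFP, expression was transient, and GFP-positive cells were sorted before RNA extraction. A further 2 K562 libraries, labelled as controls, came from cells given GFP alone, and their rates were not analysed here. The series holds 42 libraries, and the HEK293T poly(A) libraries made with the same 2 constructs are used below as a comparison.

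TadA is a bacterial enzyme that deaminates an adenosine in the anticodon loop of a tRNA, and TadA-8e is an evolved form used in base editors. It turns adenosine into inosine, which reverse transcriptase reads as G, so the share of reads with G at a genomic A serves as the readout of the enzyme's activity on that adenosine. Export and localisation signals are short peptides that carry a protein out of or into the nucleus. An mRNA passes through both compartments, whereas some long noncoding RNAs and mRNAs with unspliced (detained) introns remain in the nucleus.

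Rates, the percentage of reads with the change at a site, were higher with NES. Over the 423471 shared sites the mean rate was 14.95% and 14.98% in the NES libraries, against 9.40% and 9.49% in the NLS libraries. The NES mean exceeded the NLS mean by 5.52 percentage points, and an exact two-sided permutation test gave p = 0.33, the smallest p that 2 libraries against 2 allow. The 2 NES libraries were both above the 2 NLS libraries at 251092 sites (59.3%) and both below at 63005 sites (14.9%). The deposited rates come with no read counts, so the depth behind them is unknown, and enzyme levels were not analysed here. Fewer cells with the enzyme and less enzyme per cell cannot be told apart in these pooled cells. Erythroid identity was visible in the tables: all 19 markers on a list of erythroid and K562 genes had sites with both constructs, 2543 sites with NES and 1614 with NLS. TFRC alone held 704 of these NES and 518 of these NLS sites, and in HEK293T only TFRC and BLVRB of the 19 had sites. Of 10 kidney and neural markers of HEK293T, only KRT8 and KRT18 had sites in K562. These 2 had more NES sites in K562 (252 and 193) than in HEK293T (4 and 48), and PAX2 and EYA1 had none in either line. Of 6 markers of other blood lineages only PTPRC and LYZ had sites in K562.

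The sequence around a site was readable where it fell within a RefSeq window at a gene start (GRCh38.p14). Of all sites listed with either construct, 4344 fell in such windows, and the reference base at each of the 4344 was A. The base before the A separated called from uncalled adenosines. Of adenosines after U that lay between the first and the last called site of a window, 85.4% were called, against 52.2% after C, 25.1% after G and 19.6% after A. A U stood before 40.5% of the NES sites and before 49.2% of the NLS sites in the windows. Among shared sites in the windows, those after U had mean rates of 17.2% and 17.6% with NES, against 14.3% and 14.4% with NLS. Those after A had 8.60% and 8.56% with NES, against 3.92% and 3.90% with NLS. The median log2 ratio of NES to NLS rate was accordingly 0.21 after U, 0.63 after C, 0.93 after A and 0.96 after G. No genome was used to read the base before the other sites, so its part in the differences between genes below was not tested.

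The 10 sites below are shown as 21 bases of RefSeq sequence with the changed A and the base before it in capitals, in DNA letters. The first 4 carried the highest NES rates in the windows, at most 1 per gene, and they show the arms that can pair on either side of the A. The next 3 passed the site test with the largest change toward NES, and the last 3 with the largest change toward NLS.
G3BP2, chr4:75673273-75673293, minus strand: ggcgagcaaTAagaacccgcc
PHF19, chr9:120877354-120877374, minus strand: cccgctaatTAcataagcggg
BAG6, chr6:31652448-31652468, minus strand: atccccaaaTActatcgggga
HACD3, chr15:65530678-65530698, plus strand: accgcgagcTAtatctgcgcg
COA6, chr1:234373644-234373664, plus strand: catcgaaagGAagccggacgt
RPL27A, chr11:8682802-8682822, plus strand: tgggctgccAAcatggtaggt
RPS3A, chr4:151099656-151099676, plus strand: gcggttggcAAgaacaagcgc
SRSF5, chr14:69767160-69767180, plus strand: tagacgagtTAagtcctggtc
DDIT3, chr12:57520473-57520493, minus strand: cactgagcgTAtcatgttaaa
DDX5, chr17:64506254-64506274, minus strand: accggtctcTAgtagtgcagc

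All 4 of the sites with the highest NES rates have U before the A and arms that can form at least 4 consecutive Watson-Crick pairs around it, 6 in PHF19 and 5 in BAG6. The site in G3BP2 had 81.1% and 83.7% with NES, against 64.5% and 68.4% with NLS. The site in PHF19 had 84% and 77.4% with NES, against 72% and 62.5% with NLS. The site in HACD3 had 76.9% and 81.7% with NES, against 20.2% and 22.1% with NLS. The sites in G3BP2, PHF19 and BAG6 were thus high with both constructs, and the one in HACD3 was lower with NLS than with NES. After those sites were seen, every site and uncalled A with 10 bases on each side was searched for a perfect stem of at least 4 pairs that closed a loop of 3 to 13 bases holding the A. Stems of at least 5 pairs were found around 6.67% of called and 2.70% of uncalled adenosines, and stems of 4 pairs around 18.1% and 11.9%. Shared sites with at least 5 pairs (129 sites) had mean rates of 21.1% and 21.1% with NES, against 16.6% and 16.5% with NLS. Those with under 4 pairs (1188 sites) had 12.3% and 12.4% with NES, against 9.06% and 9.10% with NLS. Restricted to sites after U, the means were 27.5% and 28.9% with NES, against 24.7% and 24.9% with NLS, for 41 sites with at least 5 pairs. For 613 sites after U with under 4 pairs they were 16.1% and 16.2% with NES, against 13% and 13% with NLS. Neighbouring sites share reads and windows, so these are descriptions without a test.

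The sites of largest change read differently. The site in COA6 had 40.8% and 43.1% with NES, against 3.06% and 4.31% with NLS. The site in RPL27A had 12.2% and 13% with NES, against 1.35% and 1.08% with NLS. COA6 encodes an assembly factor of cytochrome c oxidase, RPL27A and RPS3A are ribosomal protein genes, and these sites have G or A before the changed base. The site in SRSF5 had 1.81% and 1.75% with NES, against 13.8% and 12.4% with NLS. The site in DDIT3 had 2.08% and 2.43% with NES, against 14.2% and 17.7% with NLS. SRSF5 encodes an SR splicing factor and DDIT3 the stress transcription factor CHOP, and with the helicase gene DDX5 all 3 sites toward NLS have U before the A. Their genes moved the same way over all shared sites, at 0.84 for COA6, 0.94 for RPL27A, 1.44 for RPS3A, -1.98 for SRSF5, -1.61 for DDIT3 and -1.71 for DDX5 on the scale described next.

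The main comparison asked which transcripts carried relatively more of the change from the cytoplasmic enzyme and which more from the nuclear one. By list median, transcripts of cytosolic ribosomal proteins (1.11) and of the respiratory chain (0.82) stood highest with NES, and those of splicing regulators (-0.65) and of genes with detained introns (-1.29) lowest. These and the other lists were chosen with earlier results of these data known, so their medians and counts are descriptions. For each library the rates of a gene's shared sites were averaged, and log2 of these averages entered limma. The median gene stood 0.72 higher (log2) with NES, so changes are given relative to that gene unless stated, as log2 of NES over NLS. On this scale 2437 of the 6523 genes were higher (37.4%) and 2432 lower (37.3%) with NES at a Benjamini-Hochberg adjusted p under 0.05. As deposited, without subtracting the median, 5229 were higher (80.2%) and 384 lower (5.89%). After each library was centred on its own median gene, both NES libraries stood above both NLS libraries for 3027 genes (46.4%) and below them for 2678 genes (41.1%). Whether replicates came from separate cultures is not stated, and p-values therefore reflect the scatter of these libraries alone, which may be technical.

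**Figure D1:**
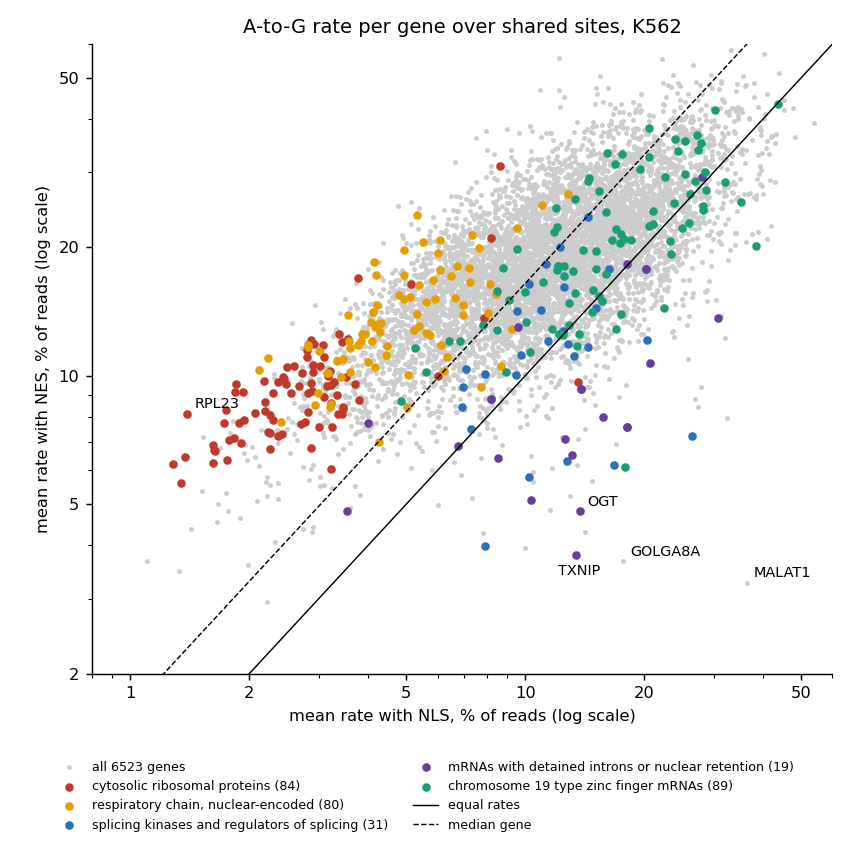
Mean A-to-G rate per gene over shared sites in K562, with NES on the vertical axis and NLS on the horizontal axis, both in percent of reads on log scales and each the mean of 2 libraries. Points are the 6523 tested genes, with 5 gene lists in colour; the solid line marks equal rates and the dashed line the median gene, and ribosomal protein genes lie above the dashed line apart from RPL22L1 while genes with detained introns lie mostly below the solid one.

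The change depended on the level of the rate. Among the 1305 genes in the lowest of 5 equal bins of mean rate (2.39% to 10.6%), 887 were higher and 263 lower, with a median of 0.39. In the highest of the 5 bins (21% to 48.6%) 187 were higher and 657 lower, with a median of -0.30. Lists of genes with low rates, such as the ribosomal proteins, therefore sit where higher calls are more frequent. The part of the rate level in the changes of each list was not tested.

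The 10 largest changes in each direction were chosen among single gene symbols past the threshold whose libraries did not overlap. MALAT1 had 3.22% and 3.33% with NES, against 35.3% and 37.5% with NLS, over 32 shared sites. MALAT1, on chromosome 11 from 65497738 to 65506516 (hg38, as all positions here), is a long noncoding RNA of nuclear speckles, and its change was -4.20 ± 0.07 (SE, limma, adjusted p = 2.2e-09). Its NES mean was the lowest of all tested genes after HSPA5, and the libraries of the 2 constructs were far apart. GOLGA8A had 3.94% and 3.41% with NES, against 17.9% and 17.4% with NLS, over 30 shared sites. ARRDC3 had 8.05% and 7.89% with NES, against 31.9% and 32.9% with NLS, over 17 shared sites. GOLGA8A belongs to a golgin family of near-identical copies, so its reads may be shared with paralogs, and ARRDC3 encodes an arrestin-domain protein. Their changes were -2.99 ± 0.09 (SE, limma, adjusted p = 2.4e-08) and -2.74 ± 0.09 (SE, limma, adjusted p = 3.6e-08). LENG8 had 6.79% and 7.62% with NES, against 26.3% and 26.6% with NLS, over 8 shared sites. TXNIP had 3.7% and 3.89% with NES, against 13.4% and 13.5% with NLS, over 222 shared sites. TXNIP encodes the thioredoxin-interacting protein, and the changes were -2.60 ± 0.13 for LENG8 and -2.55 ± 0.03 for TXNIP. OGT had 4.75% and 4.86% with NES, against 14.1% and 13.5% with NLS, over 170 shared sites. OGT, the enzyme that attaches O-linked N-acetylglucosamine to proteins, changed by -2.24 ± 0.03 (SE, limma, adjusted p = 1.5e-09). GIGYF1 (-2.41 ± 0.15), EPM2AIP1 (-2.34 ± 0.17) and the zinc finger gene ZNF121 (-2.26 ± 0.10) completed the list of genes that can be assigned, with 7, 8 and 25 shared sites. All 10 were lower with NES as deposited too.

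The remaining gene of the 10 carried the name FRMD8, at -2.44 ± 0.07 (SE, limma, adjusted p = 1.9e-08). Of the 439 NLS sites under this name 435 lay inside the interval of NEAT1 on chromosome 11, from 65422798 to 65445540, and 4 inside that of FRMD8. NEAT1 is the long noncoding RNA that scaffolds nuclear paraspeckles. Of the 49 NES sites 36 lay in the NEAT1 interval and 13 in that of FRMD8, so the value cannot be read as one of FRMD8 mRNA.

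At the other end stood 10 genes, among them several of ribosomal and mitochondrial proteins. RPL23 had 7.97% and 8.31% with NES, against 1.36% and 1.43% with NLS, over 89 shared sites. RPL23, a protein of the large ribosomal subunit, changed by 1.83 ± 0.05 (SE, limma, adjusted p = 1.7e-08). RPS27A had 9.47% and 9.68% with NES, against 1.9% and 1.8% with NLS, over 114 shared sites. RPS20 had 9.12% and 9.22% with NES, against 1.76% and 1.92% with NLS, over 106 shared sites. RPS27A encodes a fusion of ubiquitin and a ribosomal protein and RPS20 a small-subunit protein, with changes of 1.65 ± 0.04 and 1.60 ± 0.05. COX7C had 11.2% and 10.8% with NES, against 2.2% and 2.26% with NLS, over 58 shared sites. NDUFS5 had 10.1% and 10.5% with NES, against 2.12% and 2.13% with NLS, over 54 shared sites. COX7C and NDUFS5, subunits of respiratory complexes IV and I, changed by 1.58 ± 0.06 and 1.56 ± 0.06. TOMM6, of the mitochondrial outer membrane translocase, changed by 1.65 ± 0.07, and CKS1B, a subunit of cyclin-dependent kinases, by 1.60 ± 0.07. GTF2H5 (1.66 ± 0.15), of the repair and transcription factor TFIIH, and the centrin gene CETN2 (1.56 ± 0.15) rested on 8 and 6 shared sites. UBBP4, annotated as a ubiquitin B pseudogene, stood at 1.59 ± 0.07, and its reads may be shared with other ubiquitin genes. In each of these 10 genes both NES libraries were above both NLS libraries, as their choice required.

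**Figure D2:**
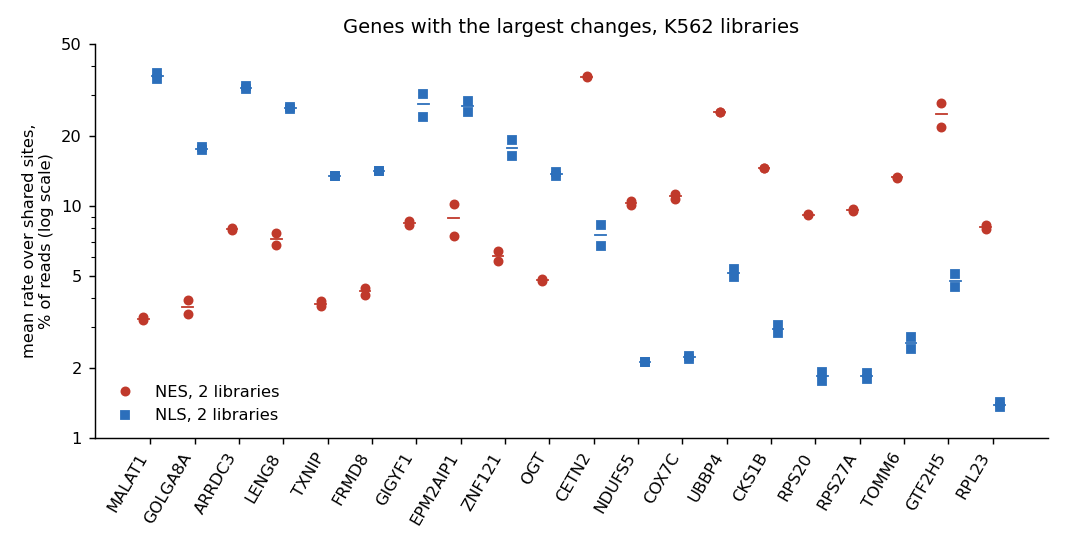
Mean rate over shared sites in percent of reads (log scale) for the genes with the largest changes in each direction, with each NES library as a circle, each NLS library as a square and group means as short lines. From MALAT1 to OGT the NES libraries lie below the NLS libraries, and from CETN2 to RPL23 they lie above, without overlap. Lack of overlap, after each library was centred on its median gene, was a condition of their choice.

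Among nuclear long noncoding RNAs measured under their own names the change was largest in MALAT1. Sites under the name FRMD8 (-2.44), most of them in the NEAT1 interval, are not counted in this list. Of 20 listed RNAs, 6 had at least 5 shared sites, of which 1 was higher and 4 lower, with a median of -0.39 (5 higher and 1 lower as deposited). TUG1 had 11.8% and 11.9% with NES, against 10.2% and 10.1% with NLS, over 132 shared sites. TUG1, found in nucleus and cytoplasm, was lower at -0.50 ± 0.04 but higher by 0.22 as deposited. OIP5-AS1 had 13.4% and 13.1% with NES, against 10.5% and 10.5% with NLS, over 92 shared sites. OIP5-AS1 stood at -0.38 ± 0.04 and at 0.34 as deposited. PVT1, the neighbour of MYC, was higher at 0.78 ± 0.09. By number of sites the list had 755 with NES and 1453 with NLS, of which 32 and 971 were in MALAT1. Noncoding RNAs that host snoRNAs or act in the cytoplasm went the other way on balance, with 10 of 18 higher and 5 lower and a median of 0.47 (3 lower without NES replicate 1). SNHG29 had 10.8% and 10.6% with NES, against 3.45% and 3.44% with NLS, over 141 shared sites. GAS5, which hosts many snoRNAs, was higher at 0.67 ± 0.05 and SNHG29 at 0.92 ± 0.04. SNHG1 had 4.92% and 5.04% with NES, against 6.15% and 5.85% with NLS, over 148 shared sites. SNHG1, another snoRNA host, was lower at -0.99 ± 0.04. NORAD had 7.93% and 7.81% with NES, against 7.88% and 7.86% with NLS, over 471 shared sites. NORAD, a long RNA that binds Pumilio proteins, had nearly equal rates with both constructs and was therefore below the median gene at -0.72 ± 0.02.

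Transcripts of the splicing machinery's regulators were lower with NES almost throughout. Of 31 measured splicing kinases, cyclin L genes and other regulators, 27 were lower and 0 higher, with a median of -0.65. As deposited, 11 were lower and 14 higher, with a median of 0.07, so the list lay on both sides of equal rates. SRRM2 had 9.53% and 9.34% with NES, against 6.85% and 7.04% with NLS, over 575 shared sites. SON had 11.2% and 11.1% with NES, against 9.75% and 9.72% with NLS, over 515 shared sites. SRRM2 and SON, the scaffold proteins of nuclear speckles, changed by -0.28 ± 0.02 and -0.52 ± 0.02. LUC7L2, a protein of the U1 snRNP, changed by -0.34 ± 0.03 and RBM39, an RNA-binding splicing regulator, by -0.43 ± 0.02. The strongest members were LENG8, given above, and 3 that were picked here for their values: the cyclin gene CCNL2 at -2.16 ± 0.06, the SR protein kinase gene CLK1 at -1.98 ± 0.06 and PNISR at -1.74 ± 0.08. SR proteins and their TRA2 relatives had 8 of 13 lower and 1 higher, with a median of -0.22. SRSF10 (-0.43 ± 0.03), SRSF11 (-0.22 ± 0.02) and SRSF1 (-0.21 ± 0.03) were lower, and TRA2B stood at 0.04 ± 0.02 (adjusted p = 0.19). The hnRNP proteins differed from both lists, with 15 of 24 higher and 6 lower and a median of 0.18. HNRNPU (0.23 ± 0.02), HNRNPA2B1 (0.24 ± 0.02) and HNRNPK (0.22 ± 0.03) were higher and SYNCRIP (-0.20 ± 0.02) lower. With the median of site rates in place of the mean, HNRNPK was lower, at -0.11.

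Genes known for detained introns or nuclear retention of their mRNA were the lowest list. Of 19 measured genes 18 were lower and 1 higher, with a median of -1.29, beside background shares of 37.3% and 37.4% and a median of 0 for all genes. The list was chosen with earlier results of these data known, so these counts describe it and are not an independent test. As deposited 11 were lower and 3 higher. MCL1 had 6.34% and 6.49% with NES, against 8.52% and 8.57% with NLS, over 310 shared sites. MCL1, an inhibitor of apoptosis, changed by -1.13 ± 0.02. EIF4A2 had 5.06% and 5.14% with NES, against 10.3% and 10.4% with NLS, over 215 shared sites. EIF4A2, a translation initiation helicase whose gene hosts snoRNAs, changed by -1.74 ± 0.03. ATF4, the transcription factor of the integrated stress response, was lower at -0.27 ± 0.04 but higher by 0.45 as deposited. CLK1, CLK4, CCNL1 and DDX39A stand on this list and on that of splicing regulators.

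Sites listed with 1 construct alone were compared by their distance from the sites of the other. Of the 136970 sites listed with NLS alone, 23436 (17.1%) lay more than 200 bases from any NES site on the same strand, and of the 521976 listed with NES alone 83424 (15.98%) lay that far from any NLS site. Distant sites had mean rates of 23.1% and 23.2% in the NES libraries for sites of NES, and 22.9% and 23.2% in the NLS libraries for sites of NLS. Nearer sites had 10.4% and 10.4% with NES and 10.2% and 10.4% with NLS. Distant NES sites were spread over 6946 gene names and distant NLS sites over 2990. Names with at least 20 distant NLS sites numbered 222, of which 197 were tested, and 132 of those were lower with NES (67.0%) and 47 higher (23.9%), beside 37.3% and 37.4% of all genes. Of 892 tested genes with at least 20 distant NES sites, 284 were lower (31.8%) and 229 higher (25.7%). In 155 of these 197 genes the distant sites had higher mean rates than the shared sites in both NLS libraries, and in 33 lower rates in both. A list of sites moves with depth and abundance, which are unknown here, and their part in these counts was not tested. The distance of 200 bases was chosen after the sites had been seen; distances of 50 and 1000 bases left 31.5% and 6.37% of the NLS sites.

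In some genes the distant NLS sites formed a compact stretch, of which 6 were picked after their sites had been seen. Each stretch was drawn from the first to the last NLS site over 200 bases from any NES site. Low numbers of NES sites inside it therefore follow in part from how it was drawn. For OGT, 2 NES and 230 NLS sites lay between 71544574 and 71547733 of chromosome X, where NLS rates averaged 13.1% and 13.7%, beside 182 NES and 534 NLS sites elsewhere in the gene, at 8.97% and 8.82% with NLS. OGT has a detained intron whose removal responds to O-linked N-acetylglucosamine. Exon boundaries were not used here, so the stretch is not assigned to an intron. In DDX17, 0 NES and 197 NLS sites lay between 38488297 and 38492086 of chromosome 22, where NLS rates averaged 13.6% and 13.1%, beside 154 NES and 318 NLS sites elsewhere in the gene, at 7.27% and 7.04% with NLS. DDX17 is an RNA helicase. For DHX15, 0 NES and 145 NLS sites lay between 24537354 and 24539910 of chromosome 4, where NLS rates averaged 19.5% and 19.6%, beside 294 NES and 316 NLS sites elsewhere in the gene, at 7.69% and 7.41% with NLS. DHX15 is a splicing helicase. In EIF2S3, 0 NES and 164 NLS sites lay between 24073645 and 24076499 of chromosome X, where NLS rates averaged 11.4% and 11.2%, beside 416 NES and 406 NLS sites elsewhere in the gene, at 4.71% and 4.66% with NLS. EIF2S3 encodes the gamma subunit of the translation initiation factor eIF2. For EWSR1, 3 NES and 144 NLS sites lay between 29288952 and 29291829 of chromosome 22, where NLS rates averaged 20.1% and 20.5%, beside 268 NES and 257 NLS sites elsewhere in the gene, at 6.15% and 6.05% with NLS. EWSR1 is an RNA-binding protein. Inside the stretches of OGT, DDX17, DHX15, EIF2S3 and EWSR1 the NLS rates were higher than elsewhere in the same gene in both libraries. Only listed sites have a rate, and distant sites had higher mean rates than nearer ones with both constructs. The part of site calling in this contrast was not tested. In ARGLU1, a splicing regulator, 0 NES and 143 NLS sites lay between 106557376 and 106559232 of chromosome 13, and the rates of 11.2% and 10.6% there were close to the 11.1% and 10.7% elsewhere. HNRNPA1, the gene of an abundant hnRNP protein, had 164 distant NLS sites at 13.4% and 13.7%, against 2.04% and 1.94% at its shared sites in the same libraries. MAT2A, which makes S-adenosylmethionine and has a detained intron, had 1 NES site and 433 NLS sites and was therefore not tested. Of the 20 genes with most distant NLS sites in K562, 19 had sites in HEK293T, and 15 had more NLS than NES sites there, as did 13.8% of the 10415 names with sites in HEK293T.

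**Figure D3:**
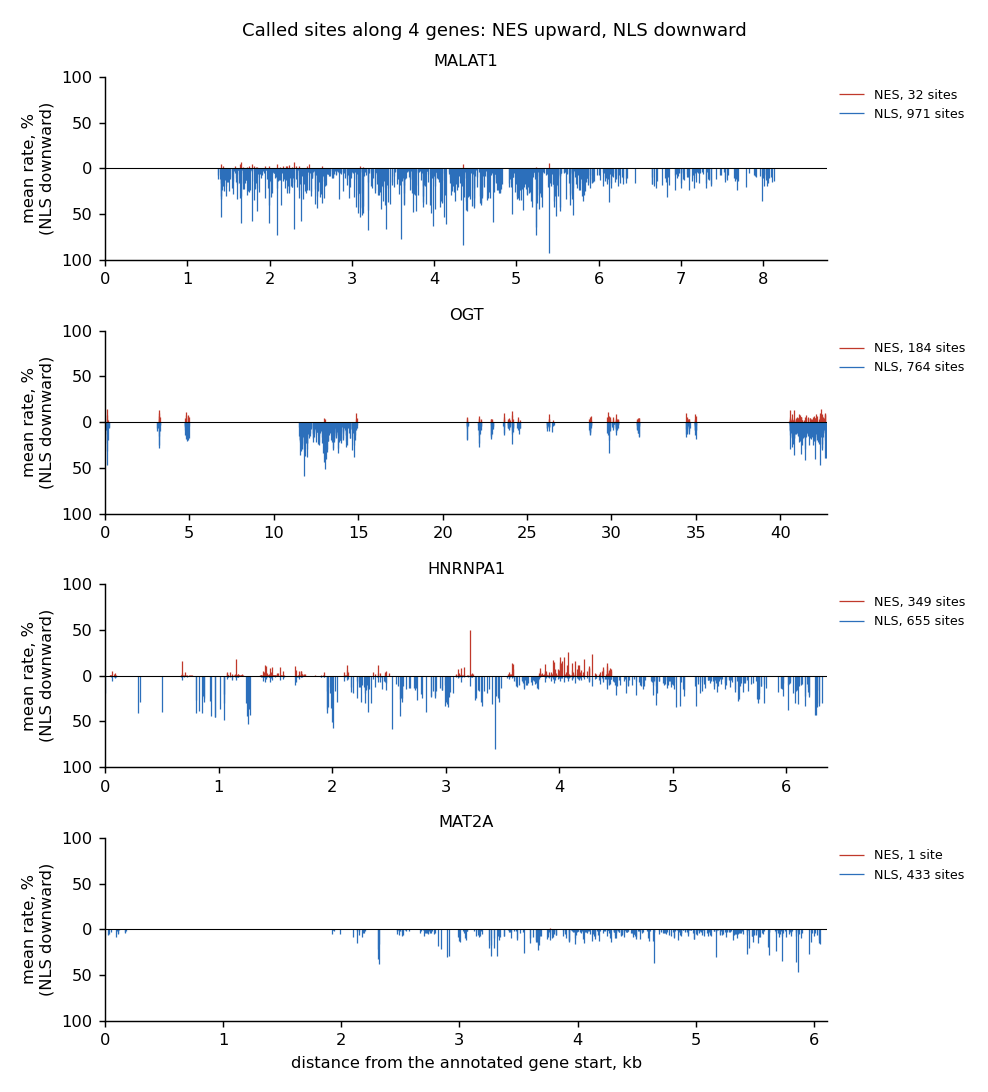
Called sites of MALAT1, OGT, HNRNPA1 and MAT2A by distance from the annotated gene start in kb, with the mean rate of the 2 NES libraries drawn upward and of the 2 NLS libraries downward, in percent of reads. In OGT a block of NLS sites, away from the other groups of sites, holds only 2 NES sites. Its borders were set by NLS sites far from any NES site. In MAT2A the sites are almost all from NLS.

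Names that join a small RNA to its host had more sites with NLS. Gene names that include a snoRNA or scaRNA covered 23 NES sites in 6 names and 280 NLS sites in 75 names, and 19 sites were shared. The NLS sites had mean rates of 19.9% and 20.6%. Under names joined to EIF4A2 there were 0 NES sites and 47 NLS sites, under names joined to SNHG1 0 and 41, under names joined to TAF1D 6 and 41, and under names joined to GAS5 2 and 30. These names mark overlap of a small RNA gene with its host, so host and small RNA reads cannot be told apart.

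MicroRNA hairpins gave the only other sequence that could be read in full. RefSeq hairpins held 121 NES sites in 36 hairpins and 101 NLS sites in 37, with 71 shared, and each of these sites was an A of the hairpin. The hairpin of MIR3064 lies in DDX5, from 64500774 to 64500839 on the minus strand of chromosome 17, and that of MIR6501 in SON, from 33550662 to 33550728 on the plus strand of chromosome 21. They are shown because they held more NLS than NES sites, with called A in capitals and all other bases in lower case, in RNA letters.
MIR3064, NES: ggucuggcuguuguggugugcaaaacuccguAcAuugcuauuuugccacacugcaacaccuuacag
MIR3064, NLS: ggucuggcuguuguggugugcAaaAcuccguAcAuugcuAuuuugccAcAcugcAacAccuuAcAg
MIR6501, NES: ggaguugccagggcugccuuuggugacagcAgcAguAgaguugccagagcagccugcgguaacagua
MIR6501, NLS: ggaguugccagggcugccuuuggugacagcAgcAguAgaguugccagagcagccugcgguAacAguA

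In MIR3064 2 of 14 adenosines were called with NES and 11 with NLS, and both NES sites were also NLS sites. The NLS sites reached a mean rate of 72.1%, and the NES sites 8.80%. In MIR6501 3 of 15 adenosines were called with NES, at mean rates up to 50.03%, and 6 with NLS, up to 38.8%. The 2 pairs of lines show that NLS calls ran into the 3′ arms of both hairpins, where NES had no call.

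mRNAs of the translation apparatus were higher with NES. Of 84 cytosolic ribosomal protein genes 81 were higher and 1 lower, with a median of 1.11, the highest of the 30 lists with a measured member. As deposited 83 were higher and 1 lower. The median rate of the list was 9.10% with NES and 2.79% with NLS, below the medians of all genes of 18.2% with NES and 11.5% with NLS. RPL3 had 5.53% and 5.68% with NES, against 1.32% and 1.37% with NLS, over 217 shared sites. RPL6 had 6.3% and 6.41% with NES, against 1.76% and 1.75% with NLS, over 230 shared sites. RPL3, RPL6, RPL4 and RPL15, all of the large subunit, changed by 1.34 ± 0.03, 1.14 ± 0.03, 0.89 ± 0.02 and 1.06 ± 0.03. The 1 lower member, named for that reason, was RPL22L1, a paralog of RPL22, at -1.21 ± 0.11. Ribosomal protein genes have many processed pseudogenes, and whether the authors' counting split reads among copies is not given in the sources used here. Translation factors had 35 of 51 higher and 11 lower, with a median of 0.50. EEF1A1 had 5.52% and 5.55% with NES, against 2.27% and 2.24% with NLS, over 494 shared sites. EEF2 had 5.6% and 5.65% with NES, against 2.23% and 2.19% with NLS, over 523 shared sites. EEF1A1 and EEF2, the elongation factors, changed by 0.58 ± 0.02 and 0.63 ± 0.02, EIF3A by 0.18 ± 0.02 and EIF4G2, a relative of the scaffold eIF4G, by -0.17 ± 0.02. Of 20 aminoacyl-tRNA synthetase genes 14 were higher and 4 lower, with a median of 0.32. EPRS1 (0.52 ± 0.02), TARS1 (0.48 ± 0.02) and IARS1 (0.11 ± 0.02) were higher and VARS1 (-0.62 ± 0.03) lower. IARS1 did not pass with the median of site rates (0.03), on the logit scale (0.05), without the variance trend or at the authors' p under 0.001 (0.03).

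mRNAs of mitochondrial proteins made in the cytosol followed the same direction. Of 80 nuclear-encoded respiratory chain genes 71 were higher and 3 lower, with a median of 0.82, and as deposited all 80 were higher. ATP5PB had 11.4% and 11.5% with NES, against 3.02% and 2.98% with NLS, over 176 shared sites. ATP5PB and ATP5F1A of the ATP synthase changed by 1.21 ± 0.03 and 0.94 ± 0.04, and NDUFA5 of complex I by 0.85 ± 0.03. ATP5F1B had 7.01% and 6.95% with NES, against 4.28% and 4.26% with NLS, over 288 shared sites. ATP5F1B, the catalytic beta subunit, stood at -0.01 ± 0.02 (adjusted p = 0.71), unlike its partner ATP5F1A, and was higher as deposited. Of 74 mitochondrial ribosomal protein genes 59 were higher and 3 lower, with a median of 0.62. MRPL3 (0.95 ± 0.04), MRPS10 (0.94 ± 0.05) and MRPS35 (0.70 ± 0.04) were higher. MRPS16 had 8.51% and 8.95% with NES, against 8.47% and 8.95% with NLS, over 126 shared sites. MRPS16 was lower at -0.72 ± 0.04, with equal rates as deposited. The mitochondrial chromosome itself held 4 NES sites and 43 NLS sites.

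**Figure D4:**
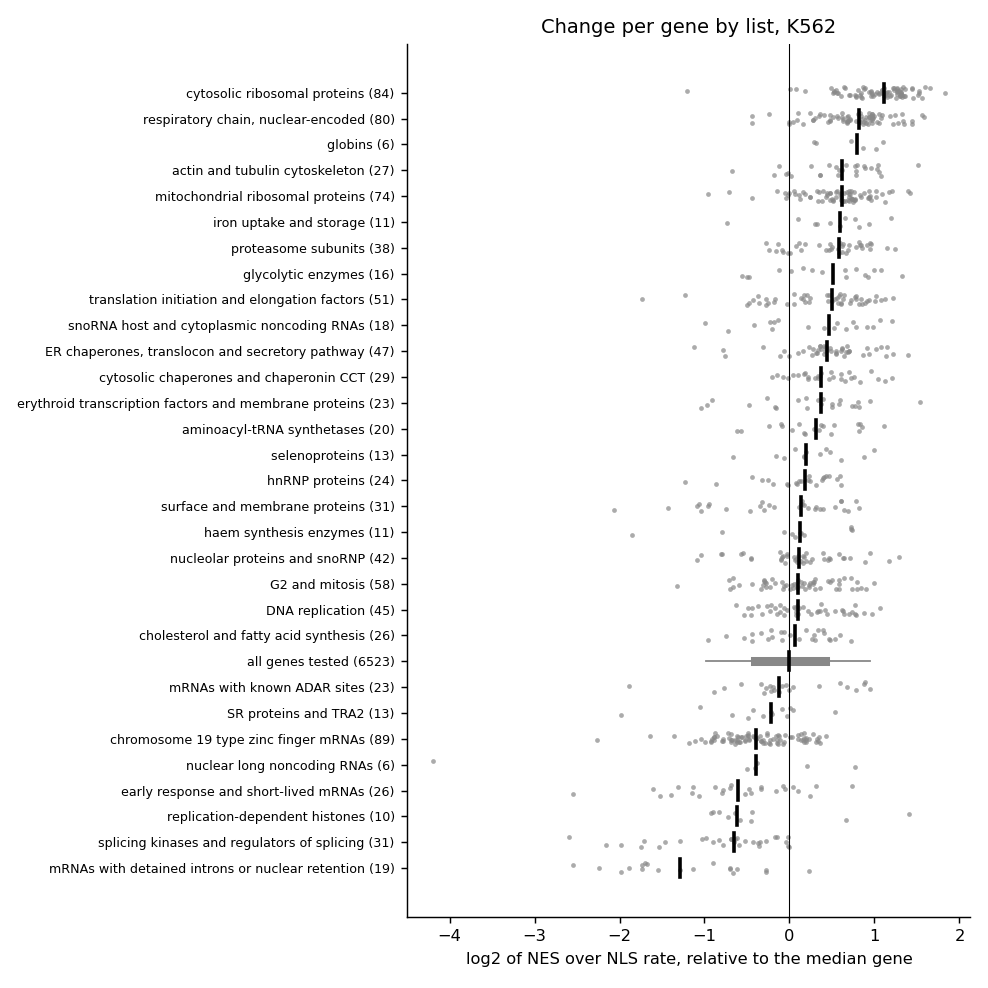
Change per gene, as log2 of NES over NLS rate relative to the median gene, for each list with its number of tested genes; points are genes, thick vertical strokes list medians, and for all genes the thin bar spans the 5th to 95th percentile and the thick bar the 25th to 75th. Ribosomal protein genes have the highest median (1.11) and genes with detained introns the lowest (-1.29).

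Housekeeping genes were mostly higher with NES. A list of chaperones and chaperonin subunits, most of them cytosolic, had 24 of 29 higher and 2 lower (median 0.38), with HSP90AA1, the gene of most shared sites at 792, at 0.52 ± 0.01, HSPA8 at 0.73 ± 0.02, HSPD1, the mitochondrial HSP60, at 0.66 ± 0.02 and TCP1 of the chaperonin CCT at 0.33 ± 0.02. Cytoskeleton genes had 21 of 27 higher and 2 lower (median 0.62). TUBB had 7.07% and 7.29% with NES, against 1.56% and 1.49% with NLS, over 178 shared sites. TUBB, a beta tubulin, changed by 1.51 ± 0.04, ACTR2 and ACTR3 of the actin-nucleating Arp2/3 complex by 1.04 ± 0.02 and 0.78 ± 0.02, and ACTB, the cytoplasmic actin, by 0.67 ± 0.03. Proteasome subunits had 29 of 38 higher and 4 lower (median 0.58). PSMD14 was higher at 0.49 ± 0.03, PSMD2 stood at -0.08 ± 0.04 (adjusted p = 0.073), and PSME4 (-0.24 ± 0.03) and PSMD5 (-0.27 ± 0.03) were lower. Glycolytic enzymes had 11 of 16 higher and 3 lower (median 0.51), with HK1 at 1.08 ± 0.03, GAPDH at 0.93 ± 0.03, ENO1 at 0.66 ± 0.02 and PKM at 0.16 ± 0.03. PKM was at -0.01 with the mean of log2 site rates and at -0.07 with the median of site rates. The most covered genes after HSP90AA1 included HSP90AB1 under a name shared with POLR1C (0.09 ± 0.01) and DDX21 (0.16 ± 0.01), both close to the median gene. DDX21 was at -0.20 with the median of site rates, and HSP90AB1 was at -0.02 with the mean of log2 site rates and on the logit scale.

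Genes of the secretory machinery were mostly higher, and those of surface proteins were divided. Of 47 genes for chaperones, translocon and secretory pathway 39 were higher and 5 lower, with a median of 0.44. CANX had 9.62% and 9.57% with NES, against 2.76% and 2.77% with NLS, over 478 shared sites. CANX, the membrane chaperone calnexin, changed by 1.07 ± 0.02, HSP90B1, the luminal HSP90, by 0.36 ± 0.02, CALU, a calcium-binding luminal protein, by 0.28 ± 0.03 and SPCS3 of the signal peptidase by -0.11 ± 0.03. SPCS3 did not pass under 5 alternatives, among them leaving out NES replicate 1 (-0.09). Of 31 surface and membrane protein genes 15 were higher and 14 lower, with a median of 0.14. SLC38A1, an amino acid transporter, was lower at -0.46 ± 0.02, as was ATP2A2, a calcium pump, at -0.18 ± 0.03. SLC38A2, a relative of SLC38A1 picked here as the lowest of that list, changed by -2.06 ± 0.03. Sterol and fatty acid synthesis genes had 12 of 26 higher and 7 lower (median 0.06). HMGCS1 (0.54 ± 0.04), FADS1 (0.48 ± 0.04) and SCD (0.31 ± 0.03) were higher. Selenoprotein genes had 8 of 13 higher and 1 lower (median 0.19), with SELENOF at 0.99 ± 0.05 and TXNRD1 at 0.17 ± 0.03, which did not pass at the authors' p under 0.001 (0.03).

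Erythroid transcripts, which K562 expresses as part of its lineage, leaned toward NES. Of 10 globin genes 6 had at least 5 shared sites, all of the embryonic, fetal or alpha type. All 6 were higher, with a median of 0.79, but leaving out single libraries gave 4 to 5 higher, and with the median of site rates 2 were higher and 1 lower. HBG1 had 5.32% and 5.42% with NES, against 1.5% and 1.54% with NLS, over 48 shared sites. HBG2 had 3.85% and 3.52% with NES, against 1.06% and 1.15% with NLS, over 85 shared sites. HBG1 and HBG2, the near-identical fetal gamma globins between which reads may be split, changed by 1.10 ± 0.06 and 1.02 ± 0.06. HBE1 had 4.96% and 5.05% with NES, against 1.67% and 1.67% with NLS, over 99 shared sites. HBE1, the embryonic epsilon globin, changed by 0.86 ± 0.04, but did not pass with the median of site rates (0.21). HBZ had 9.78% and 8.72% with NES, against 4.03% and 5.22% with NLS, over 53 shared sites. HBZ, the embryonic zeta globin, was higher at 0.29 ± 0.11 (adjusted p = 0.045), yet lower at -0.52 with the median of site rates and at -0.10 with the mean of log2 site rates, and it did not pass without NES replicate 1 (0.21) or NLS replicate 1 (0.12). The globin list had about as many sites with NES (393) as with NLS (402), while the other erythroid factors and membrane proteins had 3699 with NES and 1888 with NLS. Of 23 measured genes of that second list 13 were higher and 5 lower, with a median of 0.37. HEMGN, an erythroid nuclear protein, changed by 0.77 ± 0.08 and EPB41, of the membrane skeleton, by 0.21 ± 0.03. EPB41 did not pass with the median of site rates (0.06) or the mean of log2 site rates (0.07). ANK1, ankyrin, stood at 0.10 ± 0.04 (adjusted p = 0.074). The highest member, picked here for its value, was the erythroid transcription factor KLF1 at 1.53 ± 0.11.

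Haem synthesis and iron genes were uneven. Of 11 haem synthesis genes 3 were higher and 2 lower (median 0.12; 1 lower without NES replicate 1). UROD and FECH, enzymes of the pathway, were higher at 0.72 ± 0.06 and 0.72 ± 0.06, and ALAS2, its erythroid first enzyme, stood at 0.07 ± 0.06 (adjusted p = 0.32). SLC25A37 had 6.46% and 5.88% with NES, against 13.1% and 13.9% with NLS, over 73 shared sites. SLC25A37, which encodes mitoferrin, the mitochondrial iron importer, was lower at -1.85 ± 0.06, with 93 NES sites and 384 NLS sites. Iron uptake and storage genes had 9 of 11 higher and 1 lower (median 0.60). FTH1 had 7.89% and 8% with NES, against 2.51% and 2.51% with NLS, over 188 shared sites. FTH1, ferritin heavy chain, changed by 0.94 ± 0.03, NCOA4, the receptor for ferritin turnover, by 0.82 ± 0.02, the iron chaperone gene PCBP1 by 0.60 ± 0.04 and TFRC, the transferrin receptor, by 0.30 ± 0.02. TFRC did not pass with the median of site rates (0.06).

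Short-lived, zinc finger and histone mRNAs were more often lower with NES than all genes (37.3%). Early response and short-lived mRNAs had 19 of 26 lower and 3 higher, with a median of -0.61, and 13 were higher and 9 lower as deposited. MDM2, the ubiquitin ligase of p53, changed by -0.34 ± 0.04, and PIM1, a serine kinase, stood at -0.05 ± 0.03 (adjusted p = 0.19). TXNIP and MCL1 stand on this list as well. Of 89 zinc finger genes 58 were lower and 8 higher, with a median of -0.39. As deposited 54 were higher and 10 lower. The count of 8 was 4 without NES replicate 1, 4 without NES replicate 2 and 13 without NLS replicate 2. ZNF24 had 11.7% and 11.8% with NES, against 13.7% and 13.5% with NLS, over 367 shared sites. ZNF24 changed by -0.93 ± 0.02 and ZNF664 by -0.57 ± 0.04. ZNF207 stood at 0.03 ± 0.03 (adjusted p = 0.49) and ZNF770 at 0.01 ± 0.04 (adjusted p = 0.91). Histone genes of the replication-dependent class had 8 of 10 lower and 2 higher, with a median of -0.62. Their mRNAs normally end in a stem-loop without poly(A), so these rates come from the polyadenylated share. H2BC21 (-0.90 ± 0.06) and H2AC6 (-0.59 ± 0.07) were lower, and H1-2 (1.41 ± 0.06) and H2BC12 (0.66 ± 0.04) higher.

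Cell cycle, nucleolar and ADAR-site lists lay near the median gene. Of 58 mitotic genes 27 were higher and 16 lower (median 0.10), with TPX2 (0.28 ± 0.03) and TOP2A (0.24 ± 0.04) higher and SMC4 (-0.23 ± 0.03) and CENPF (-0.21 ± 0.04) lower. TOP2A did not pass with the median of site rates (0.0032) or the mean of log2 site rates (0.05). Of 45 replication genes 20 were higher and 12 lower (median 0.10; 6 lower without NES replicate 1), with MCM7 at 0.16 ± 0.03, RFC1 at -0.46 ± 0.04 and DTL at -0.63 ± 0.05. With the median of site rates MCM7 was lower, at -0.20. Nucleolar proteins had 19 of 42 higher and 8 lower (median 0.12). NPM1 had 6.79% and 6.74% with NES, against 1.67% and 1.7% with NLS, over 245 shared sites. NPM1 and NCL, the abundant nucleolar proteins nucleophosmin and nucleolin, changed by 1.29 ± 0.03 and 0.64 ± 0.03. mRNAs with known sites of endogenous ADAR editing had 7 of 23 higher and 10 lower (median -0.12). SRP9 was higher at 0.87 ± 0.04, AZIN1 (-0.29 ± 0.03) and FLNA (-0.21 ± 0.03) were lower, and COPA stood at 0.05 ± 0.03 (adjusted p = 0.16).

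Single sites varied widely within a gene. Relative to the median site, 78686 sites were higher (18.6%) and 68567 lower (16.2%) with NES in limma, and as deposited 170872 were higher (40.4%) and 24575 lower (5.8%). Without NES replicate 1 only 16927 were higher and 18650 lower, and without NES replicate 2 these were 18077 and 20984. Without NLS replicate 1 they were 82384 and 61567, and without NLS replicate 2 they were 82172 and 63053. In the 4486 genes with at least 20 shared sites the median SD of the log2 ratio among sites of a gene was 0.81. Of those genes 3791 (84.5%) held sites that were higher and sites that were lower. Within genes called higher 31.7% of sites were higher and 5.91% lower, and within genes called lower 30.2% were lower and 5.41% higher. A site's deviation from its gene in replicate 1 correlated with that in replicate 2 at 0.71 over 397998 sites. This is a description, since sites of a gene share libraries and reads.

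The sites of largest change, at most 1 per gene and with a mean rate of at least 5%, were as follows. In MALAT1, position 65502972 of chromosome 11 had 2.34% and 1.65% with NES, against 72.9% and 72.7% with NLS (-5.85 ± 0.27). In DDX5, position 64500312 of chromosome 17 had 0.504% and 0.348% with NES, against 13.3% and 11.6% with NLS (-5.53 ± 0.31). In TXNIP, position 145993117 of chromosome 1 had 0.468% and 0.602% with NES, against 14.7% and 15.5% with NLS (-5.47 ± 0.29). The site in MALAT1 was the lowest of all, and DDX5 is the RNA helicase gene whose hairpin was shown above. The other 5 toward NLS were in GOLGA8A, CCNL2, SLC38A2, EIF4A2 and a readthrough name that joins ATP6V1G2 and DDX39B, with changes from -5.41 to -4.86. In TOMM20, position 235109977 of chromosome 1 had 31.2% and 32.3% with NES, against 0.765% and 0.875% with NLS (4.64 ± 0.27). In TCP1, position 159781076 of chromosome 6 had 22.7% and 23.5% with NES, against 0.667% and 0.774% with NLS (4.37 ± 0.27). In B2M, position 44717725 of chromosome 15 had 14.4% and 14.2% with NES, against 0.439% and 0.517% with NLS (4.27 ± 0.28). TOMM20 encodes an import receptor of the mitochondrial outer membrane and B2M the light chain of HLA class I. The other 5 toward NES were in SET, DNAJA1, YWHAZ, PPA1 and CBX3, with changes from 4.14 to 4.38. All 16 of these sites had an adjusted p of 0.0047 in limma relative to the median site, and all lay in genes called in the same direction. The gene of TCP1 moved by 0.33 and its site by 4.37.

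Some names had sites with 1 construct alone. There were 203 names with sites only for NLS and 1141 with sites only for NES. These counts include names that join several genes, such as a host and its snoRNA. A host in such a name can have sites for both constructs under its own name, as EIF4A2 did (222 NES and 656 NLS sites). The genes given next were taken from names that hold a single gene. The largest numbers with NLS were 50 sites in MIR17HG, the host of a microRNA cluster, at 6.24% and 5.89% in the 2 NLS libraries. ZC3H12A, which encodes the ribonuclease Regnase-1, followed with 34 sites at 37.5% and 45.6%, then LOC730101 with 28, CCDC18-AS1 with 26, LOC440910 with 24 and NBR2 with 18. With NES they were STAG1, of the cohesin complex, and the protease gene MBTPS2 with 80 sites each, at 32.1% and 32.4% in STAG1 and 27.5% and 28.4% in MBTPS2. SNX10 had 79, the phospholipase gene PLD1 74 and RCAN1 65. Absence from a table does not mean a rate of 0, since every listed site had passed the authors' adjusted p in both libraries.

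HEK293T, a human embryonic kidney line, was used to ask which of these changes differed between cell lines. Over 284332 sites in all 4 tables, 5184 genes were compared, and the NES against NLS change was taken relative to the median gene in each line. Of these genes 4228 had the same sign in K562 and HEK293T. The difference, K562 minus HEK293T, passed in limma for 954 genes higher (18.4%) and 856 lower (16.5%) in K562. As deposited these were 1515 (29.2%) and 451 (8.7%), with the median of site rates 541 and 496, and without K562 NES replicate 2 they were 680 and 565. TUG1 had 16.2% and 16.5% with NES and 10.7% and 10.9% with NLS in K562, against 5.41% and 5.54% with NES and 16.4% and 17% with NLS in HEK293T, a difference of 2.07 ± 0.08 over 56 sites. MKI67 had 19.6% and 18.7% with NES and 9.75% and 10.3% with NLS in K562, against 7.34% and 6.79% with NES and 15.1% and 16.6% with NLS in HEK293T, a difference of 1.97 ± 0.09 over 77 sites. ASPM had 24.2% and 25% with NES and 17% and 16% with NLS in K562, against 7.8% and 7.78% with NES and 22% and 21.3% with NLS in HEK293T, a difference of 1.93 ± 0.10 over 34 sites. MKI67 encodes the proliferation antigen Ki-67 and ASPM a spindle pole protein, and with CCNB1 (1.25 ± 0.09), mitotic cyclin B1, and FAM72B (1.56 ± 0.23) they were higher in K562. TSPYL2, of the nucleosome assembly protein family, differed by 1.80 ± 0.20 on 6 sites. TWF1 had 17.4% and 18.2% with NES and 19.4% and 19.8% with NLS in K562, against 21.5% and 21.8% with NES and 8.29% and 9.17% with NLS in HEK293T, a difference of -1.58 ± 0.11 over 33 sites. RPL22L1 had 7.42% and 6.63% with NES and 14.6% and 12.6% with NLS in K562, against 6.87% and 7.47% with NES and 5.12% and 6.13% with NLS in HEK293T, a difference of -1.43 ± 0.23 over 5 sites. TWF1 encodes the actin monomer binder twinfilin, and WASL (-1.37 ± 0.15), SH2B1 (-1.24 ± 0.22), VAMP3 (-1.23 ± 0.11) and CHCHD7 (-1.20 ± 0.23) were also lower in K562. These were the 6 largest differences in each direction.

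Some whole lists differed between the lines and others had close medians. Of all 5184 genes compared, 18.4% were higher and 16.5% lower in K562. Mitotic genes were higher in K562 for 32 of 57 and lower for 1, with list medians of 0.11 in K562 and -0.28 in HEK293T. Cytosolic ribosomal proteins were higher in K562 for 73 of 83 and lower for 2, with medians of 1.03 in K562 and 0.59 in HEK293T. The secretory list was higher for 33 of 46 and lower for 1, with medians of 0.41 in K562 and 0.14 in HEK293T. Genes with detained introns were lower in K562 for 10 of 18 and higher for 3, although their medians were close, at -1.30 in K562 and -1.33 in HEK293T. Splicing regulators were higher for 7 and lower for 8 of 31, with medians of -0.72 in K562 and -0.73 in HEK293T. The 2 lines were transfected by different methods, and cell line and method cannot be told apart.

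**Figure D5:**
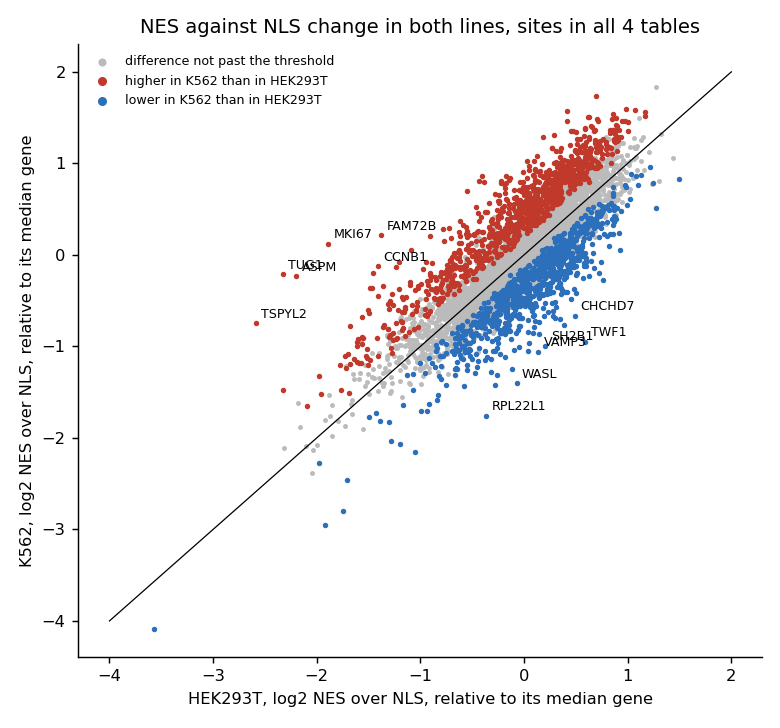
NES against NLS change per gene in K562 (vertical axis) and HEK293T (horizontal axis), each as log2 relative to the median gene of that line, over sites in all 4 tables. Red points are the 954 genes higher and blue points the 856 lower in K562, the line marks equal change, and most genes lie along it.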

How the data were processed

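The measurements came from poly(A) RNA-seq after TadA-8e expression in K562 (2 NES and 2 NLS libraries) and, for comparison, HEK293T. Reads were handled with cutadapt, STAR, Bowtie2 and SAMtools on hg38, per the submitters' processing notes; how sites were called is not given in the sources used here. Per site and replicate, the authors deposited the fraction of changed reads and an adjusted p-value, and each listed site was under 0.05 in both replicates. No read counts accompany the fractions, so no interval from depth is given. Rates are printed as percent, computed from the deposited fractions.

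Sites were joined on chromosome, position and strand, and genes with at least 5 shared sites entered limma 3.58.1 (R 4.3.3) on log2 of the mean site rate, with a variance trend on the number of sites, Benjamini-Hochberg adjustment and a threshold of 0.05. All tested genes were fitted together, with no pseudocount because no listed rate was 0. Single sites and the K562 minus HEK293T difference were fitted likewise. Of the tested names, 6403 (98.2%) matched RefSeq gene symbols, and 64 names hold several genes. Named genes were the 4 members of each list with most shared sites, the 10 largest changes and 6 largest differences from HEK293T in each direction, the 6 genes with most shared sites, the 6 largest with sites for 1 construct alone, and the 8 largest site changes in each direction; others are marked in the text, and a few genes that the rule chose are not reported here. The members and lists were chosen with earlier results of these data known, and the lists share members. Tested on simulated data with 200 changed genes, the gene fit recovered 87% of changes of 0.5 and 100% of changes of 1 on the log2 scale, with 16 false calls. The site fit, run on 21174 simulated sites, recovered 0% and 5%. Alternatives changed the scaling, the summary of site rates, the site minimum, the variance trend, the replicate block and the libraries. Sequences are from RefSeq (GRCh38.p14). Tables were joined in Python 3.11.15 with pandas 2.3.3 and drawn with matplotlib 3.10.9.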

Additional observations from a re-analysis of the deposited data

Results flagged for a closer look

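The NES against NLS change differed between K562 and HEK293T by a test of the difference itself in limma, for 954 genes higher and 856 lower in K562 of 5184. The largest differences toward K562, as log2, were 2.07 in TUG1, 1.97 in MKI67, 1.93 in ASPM, 1.80 in TSPYL2, 1.56 in FAM72B and 1.25 in CCNB1. Those in the other direction were -1.58 in TWF1, -1.43 in RPL22L1, -1.37 in WASL, -1.24 in SH2B1, -1.23 in VAMP3 and -1.20 in CHCHD7. All 12 kept their direction and stayed past the threshold under the alternatives in which they could be fitted; with a minimum of 20 sites, 6 of them could be.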

How the results depend on the processing

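As deposited, 5229 genes were higher and 384 lower, 170872 sites were higher and 24575 lower, and 1515 genes were higher and 451 lower in K562 than in HEK293T. With the median of site rates the last 2 were 541 and 496. The mean difference in rate was 3.38 points over all sites of each table. Between medians over the shared sites the difference was 4.07 points. Leaving out 1 library gave 2122 to 2570 genes higher and 2023 to 2530 lower, 16927 to 82384 sites higher and 18650 to 63053 lower, and for the difference between lines 672 to 876 higher and 565 to 794 lower. Same-numbered libraries did not deviate together (correlation -0.0066 over all tested genes, 2 pairs). Whether they shared a culture or preparation is not stated, and 2 pairs cannot decide it. With the replicate block 2466 genes were higher and 2451 lower, 80280 sites higher and 72839 lower, and 957 and 861 genes differed between lines. Genes below the median gene by less than its shift of 0.72 turn positive as deposited, by construction, though NORAD, MRPS16, H2AC6 and DTL did not pass there: TUG1 at 0.22, OIP5-AS1 at 0.34, NORAD at 0.00022, SRRM2 at 0.44, SON at 0.20, LUC7L2 at 0.37, RBM39 at 0.29, SRSF10 at 0.29, SRSF11 at 0.50, SRSF1 at 0.51, SYNCRIP at 0.52, ATF4 at 0.45, MRPS16 at 0.0037, ATP5F1B at 0.71, EIF4G2 at 0.55, VARS1 at 0.10, PSME4 at 0.48, PSMD2 at 0.64, PSMD5 at 0.45, SPCS3 at 0.61, SLC38A1 at 0.26, ATP2A2 at 0.54, H2AC6 at 0.13, SMC4 at 0.49, CENPF at 0.51, RFC1 at 0.26, DTL at 0.085, PIM1 at 0.67, MDM2 at 0.38, FLNA at 0.51, AZIN1 at 0.43 and ZNF664 at 0.15. The BAG6 site was at 0.14. With the median of site rates, HNRNPK was at -0.11, HBZ at -0.52, PKM at -0.071, MCM7 at -0.20 and DDX21 at -0.20. With the mean of log2 site rates, HBZ was at -0.10, PKM was at -0.0085, MCM7 was at -0.0088, DDX21 was at -0.018 and HSP90AB1,POLR1C was at -0.017. On the logit scale, HSP90AB1,POLR1C was at -0.017. At authors' p under 0.001 in all 4 libraries, an alternative chosen after seeing the data, ZNF207 was at -0.13. The cause of these reversals was not tested. Depth is unknown, so its limits cannot be given. Removing sites over 0.9 in every library removed none.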
